A study of Homo sapiens with 9 samples.

Results

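Blood groups are defined by antigens on proteins and sugars of the red cell surface, and the genes of 9 such proteins were examined here in human leukemia cell lines: GYPB, GYPC, GYPE, RHAG, RHD, KEL, XK, ERMAP and ICAM4. They were chosen by name, with earlier results of these data known. Every probe set that the array's annotation gives to one of them was taken, including those shared within the glycophorin or the Rh family. That gave 12 probe sets of the 27306 in the table. They stand for 6 of the 9 genes, with 3 for RHAG, 3 for RHD, 2 shared by RHD and its neighbour RHCE, and 1 each for KEL, XK, ERMAP and ICAM4. Counts and medians over the 12 thus take RHAG and the Rh genes several times and are not counts of separate genes. The annotation used named no probe set for the 3 glycophorin genes GYPB, GYPC and GYPE, which are therefore not analysed here. All 12 probe sets reached a log2 value of 5, the level taken as the minimum for a measured signal, in at least 1 array of each cell line.

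Expression of mRNA was measured on 9 Affymetrix arrays. Of these, 6 were of K562 cells, a line from a chronic myeloid leukemia that carries erythroid features, and 3 were of HEL cells, an erythroleukemia line. The K562 arrays were 1 with 25 µM hemin, 1 with 50 µM hemin, 1 with 100 nM DAC, 1 with 5 nM PMA and 2 untreated, and the HEL arrays were 1 with 20 nM DAC, 1 with 5 nM PMA and 1 untreated. Hemin, the oxidized form of heme, was used to drive erythroid differentiation, PMA (a phorbol ester, for 48 h) to drive megakaryocytic differentiation, and DAC (decitabine, an inhibitor of DNA methyltransferases) was given as 3 pulses, each lasting 24 h, before cells were collected at 144 h. The doses are those of the sample titles, since the shared protocol names others. Each line is one established culture line, and the labels do not say whether the 2 untreated K562 arrays came from separate cultures, so the p-values measure only the spread between these arrays. That spread includes the difference between the 25 and 50 µM hemin arrays, which were fitted as 1 group. It lies behind every SE, interval and p-value below.

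The Rh antigens sit on a complex in the red cell membrane in which RhD and RhCE, products of neighbouring and closely related genes, are held together with the Rh-associated glycoprotein RHAG, a channel for ammonia. The Kell glycoprotein KEL, a zinc endopeptidase, is joined to the membrane protein XK, ERMAP carries the Scianna antigens, and ICAM4 carries the Landsteiner-Wiener antigens and binds integrins on other cells. These genes come on at different steps of erythroid maturation, and much of their control in red cell precursors runs through GATA1, a factor named for the DNA letters it binds.

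The sequence upstream of RHD is shown because its probe sets differed most between arrays. RHCE had no probe set of its own, so whether RHD and RHCE varied together cannot be told. Its sequence is shown because it shares 2 probe sets with RHD, and those of RHAG and KEL are shown for comparison. Each is the 250 bases before a transcription start in RefSeq (GRCh38.p14), 5′ to 3′ on the gene's strand, with each match to a GATA motif in capitals, the letters GATA with A or T before and A or G after them, on either strand. RHD is at chr1:25272259-25272508 (plus strand), RHCE at chr1:25420826-25421075, RHAG at chr6:49636840-49637089 and KEL at chr7:142962364-142962613 (all minus strand). RefSeq gave 2 windows each for RHD and RHCE, and the pair whose starts align is shown.
RHD: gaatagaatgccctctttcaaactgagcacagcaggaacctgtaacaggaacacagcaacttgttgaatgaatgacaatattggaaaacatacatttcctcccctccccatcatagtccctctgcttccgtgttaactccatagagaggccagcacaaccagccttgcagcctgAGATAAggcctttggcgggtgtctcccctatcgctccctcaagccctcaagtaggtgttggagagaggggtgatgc
RHCE: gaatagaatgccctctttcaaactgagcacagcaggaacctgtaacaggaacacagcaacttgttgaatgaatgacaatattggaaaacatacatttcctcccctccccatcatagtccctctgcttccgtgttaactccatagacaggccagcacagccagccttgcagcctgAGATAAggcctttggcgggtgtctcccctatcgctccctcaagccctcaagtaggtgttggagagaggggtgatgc
RHAG: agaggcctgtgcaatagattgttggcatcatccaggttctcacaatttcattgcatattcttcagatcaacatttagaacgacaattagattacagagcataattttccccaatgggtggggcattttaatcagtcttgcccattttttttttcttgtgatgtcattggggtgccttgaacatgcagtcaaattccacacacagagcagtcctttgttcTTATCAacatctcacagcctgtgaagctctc
KEL: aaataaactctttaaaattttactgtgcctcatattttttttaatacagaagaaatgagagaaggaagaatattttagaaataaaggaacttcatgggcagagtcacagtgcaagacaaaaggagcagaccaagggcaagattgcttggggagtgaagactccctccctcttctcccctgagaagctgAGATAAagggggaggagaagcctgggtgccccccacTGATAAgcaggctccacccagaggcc

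The RHD and RHCE windows had the same base at 248 of 250 positions and differed by G146C and A158G, counted from 1 at the 5′ end with the RHD base first. Both held 1 such motif, as did the RHAG window, and KEL held 2. The other RHD window, at chr1:25272236-25272485, also held 1 motif and 3 CpG dinucleotides, while the other RHCE window, at chr1:25420936-25421185, held 0 motifs and 2 CpG. At least 1 motif was present in 22.3% of the 35116 RefSeq windows of the same length. A match is thus a description only, and whether GATA1 binds there was not tested. The windows also differed in CpG dinucleotides, the positions at which DNA is methylated, with 3 in the printed window of RHD, 3 in that of RHCE, 1 in RHAG and 0 in KEL, against a median of 11 over all windows. ERMAP had 2 windows, 1 with 26 CpG and no motif and 1 with 4 CpG and 2 motifs, and the ICAM4 window had 6 CpG and no motif. No window was given for XK.

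The lines carried the markers of their lineage. Of 12 erythroid marker genes, 11 were named on the array, and their mean log2 value was 9.47 and 10.24 with hemin, 11.35 with DAC, 8.81 with PMA and 9.42 and 8.46 in untreated K562 cells. In HEL it was 10.39 with DAC, 9.26 with PMA and 10.16 untreated. Among these markers, GATA1 in K562 averaged 9.33 with hemin and read 10.59 with DAC and 10.84 with PMA, against a mean of 10.07 untreated. The GATA1 differences were thus -0.74 with hemin, 0.51 with DAC and 0.77 with PMA, and none passed the test used below. The part of GATA1 in the Rh differences below was not tested. In HEL, GATA1 read 11.32 with PMA, against 11.52 untreated. The 9 named of 11 megakaryocytic markers averaged 7.79 with PMA in K562 and between 3.43 and 4.16 on the other 5 K562 arrays, against 10.29 with PMA, 8.26 with DAC and 8.05 untreated in HEL. Few genes of other blood lineages could be checked: 2 of 8 monocyte and granulocyte markers were named and averaged between 4.40 and 7.96 over the 9 arrays, and 3 of 6 lymphocyte markers averaged between 3.15 and 6.02. That average hides CD3D, a chain of the T cell receptor complex, which in K562 averaged 9.25 with hemin and read 8.51 with DAC and 12.51 with PMA, against a mean of 10.71 untreated, while CD79A and CD2 stayed below 5 in these K562 groups. In HEL, CD3D read 3.05 with PMA, against 3.45 untreated. In bulk RNA, fewer cells that express a gene and less RNA of that gene per cell cannot be told apart, and the part of these marker shifts in the differences below was not tested.

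**Figure D1:**
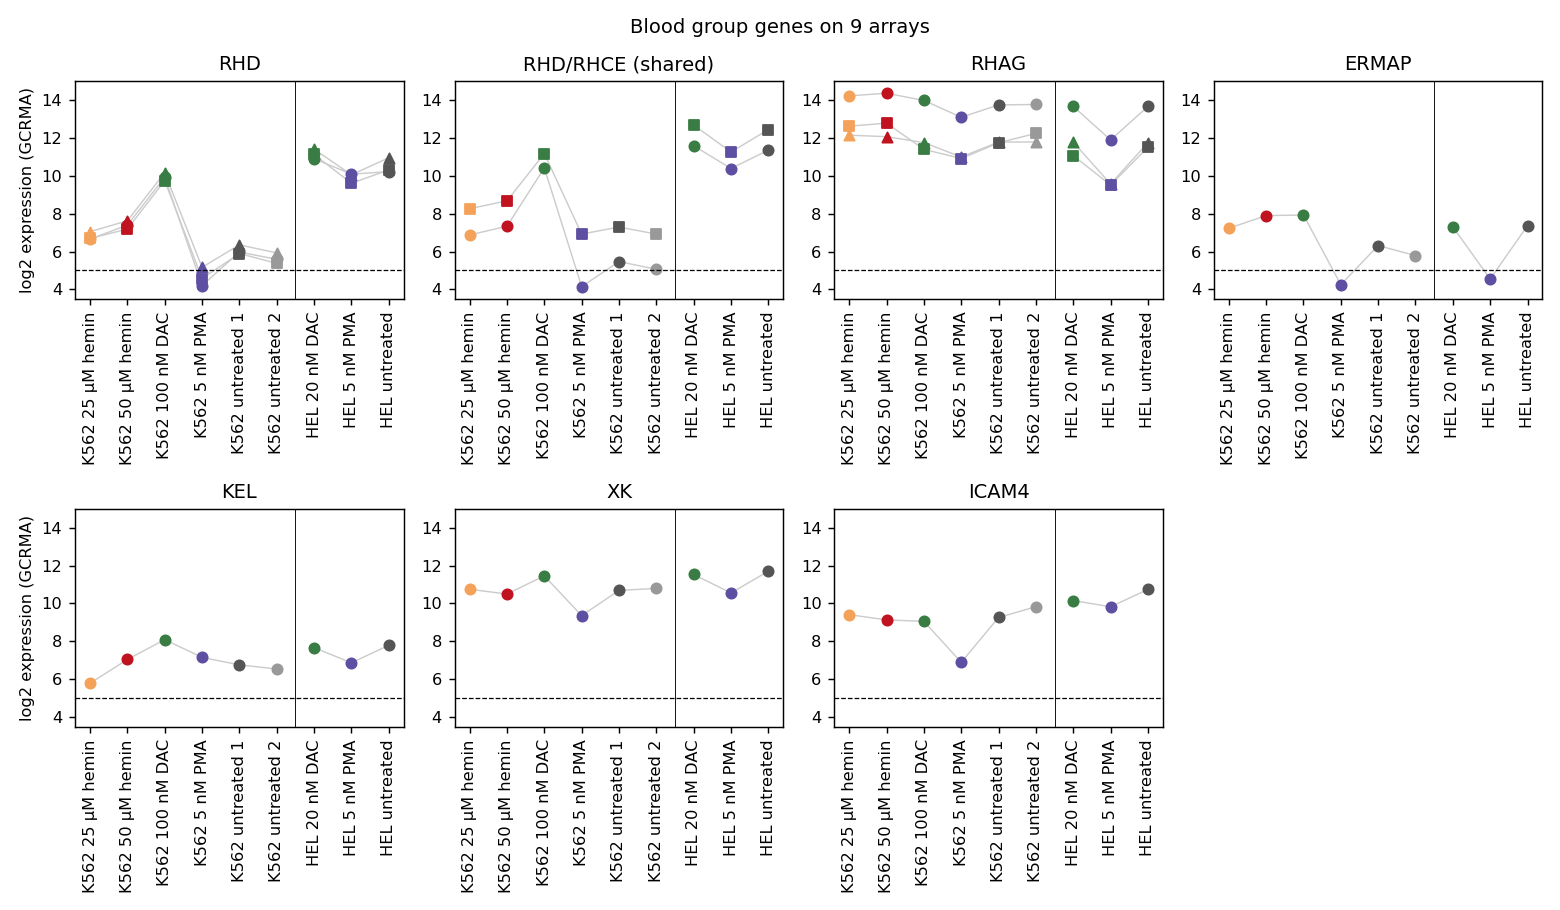
Log2 expression (GCRMA) of the 12 probe sets by gene on the 9 arrays, with K562 left and HEL right of the vertical line; each marker shape is 1 probe set, and the dashed line marks the minimum of 5. The RHD and shared RHD/RHCE probe sets reached 9.74 to 11.17 with DAC in K562, against 5.06 to 7.29 on the untreated K562 arrays, while all RHAG values lay between 9.51 and 14.36.

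RHD and the RHD/RHCE probe sets differed most between arrays. RHD (chr1:25272486-25330445) carries the D antigen, the protein that is absent from Rh-negative red cells. Its probe set 210586_x_at read 7.05 and 7.62 with 25 and 50 µM hemin, 10.16 with DAC, 5.17 with PMA, and 6.35 and 5.93 in untreated K562 cells. In HEL it read 11.41 with DAC, 10.05 with PMA and 10.95 untreated. Thus every HEL value lay above every K562 value except that of the DAC array, which lay above the PMA-treated HEL array. The remaining RHD probe sets also had all HEL values above the K562 values other than that of DAC. Probe set 210429_at read 6.65 and 7.39 with hemin, 9.92 with DAC, 4.21 with PMA and 5.97 and 5.59 untreated in K562, and 10.90, 10.09 and 10.21 with DAC, with PMA and untreated in HEL, so that here the DAC-treated K562 array lay below all 3 HEL arrays. For 210430_x_at the K562 values were 6.69 and 7.19 with hemin, 9.74 with DAC, 4.57 with PMA and 5.89 and 5.38 untreated, and the HEL values 11.13 with DAC, 9.60 with PMA and 10.31 untreated. After each profile was centred on its own mean, the 3 RHD profiles differed from each other by a root mean square of 0.11 to 0.28 log2 units over the 9 arrays.

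The shared probe sets cannot tell RHD from RHCE, which carries the C, c, E and e antigens (chr1:25362249-25430203). Whether the probe sets named for RHD alone also read RHCE was not tested. Of these, 210586_x_at and 210430_x_at differed from shared 216317_x_at by a root mean square of only 0.25 and 0.31, and 210429_at by 0.50. All of them differed from 215819_s_at by 0.51 to 0.54. Probe set 215819_s_at read 6.88 and 7.33 with hemin, 10.41 with DAC, 4.15 with PMA and 5.47 and 5.06 untreated in K562, and 11.58 with DAC, 10.38 with PMA and 11.35 untreated in HEL. Probe set 216317_x_at read 8.26 and 8.67 with hemin, 11.17 with DAC, 6.92 with PMA and 7.29 and 6.92 untreated in K562, and 12.68, 11.25 and 12.44 in HEL with DAC, with PMA and untreated. In both, hemin and DAC lay above both untreated K562 arrays, and the PMA array lay below both in the first and at the lower untreated value in the second.

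The largest differences with a treatment were those of the Rh probe sets with DAC in K562. The 5 RHD and RHD/RHCE values were 16.2- to 35.5-fold higher on the DAC array than the untreated mean, with log2 differences of 4.02 to 4.14 for RHD and of 5.15 (SE 0.34) and 4.07 (SE 0.33) for the shared probe sets. Among 19205 probe sets that reached the minimum on these arrays, they held places 14 to 38 by size of the increase. None passed the limma test after Benjamini-Hochberg adjustment over 20260 probe sets. The adjusted p was 0.106 and 0.129 for the shared probe sets and 0.175 to 0.189 for RHD, and the 95% interval of the smallest difference was 2.95 to 5.09. In this comparison limma called 0 of all 20260 probe sets, 0% with a smallest adjusted p of 0.0651, while 2213 had an unadjusted p under 0.05. The lone DAC array was assumed to vary like the untreated and hemin arrays. With each array centred on its median, 215819_s_at passed with an adjusted p of 0.0425, and it passed in no other alternative setting.

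Of the 12 probe sets, 8 were over 1.5-fold higher on the DAC array and above both untreated arrays, where 15.6% of all probe sets were, and 1 was lower, where 17.7% were. Their median difference was 1.66, against -0.02 over all probe sets. The 5 Rh probe sets are among the 8 higher ones, so the count and the median weigh the Rh genes more than once. ERMAP was among the higher ones. Its probe set 219905_at (gene at chr1:42817122-42844991) read 7.93 with DAC, against 6.31 and 5.78 untreated, a difference of 1.88 (SE 0.43, adjusted p in limma 0.380). KEL (chr7:142941114-142962363) read 8.09 with DAC, its highest value on any array, against 6.76 and 6.54 untreated, a difference of 1.44 (SE 0.60, adjusted p 0.486). XK (chrX:37685791-37732130) read 11.46 with DAC, against 10.69 and 10.79, a difference of 0.72 (SE 0.25, adjusted p 0.453). RHAG (chr6:49605175-49636839) did not follow RHD, since its 3 probe sets differed by 0.22, -0.03 and -0.59. The last, of 206146_s_at, was 1.51-fold lower, and it was -0.84 without untreated replicate 1 and -0.34 without untreated replicate 2. ICAM4 (chr19:10286955-10288520) read 9.05 with DAC, against 9.26 and 9.83, a difference of -0.49 that was below 1.5-fold. It was -0.77, past 1.5-fold, without untreated replicate 1 and -0.20 without untreated replicate 2, so that 2 and 0 of the 12 probe sets were then lower.

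**Figure D2:**
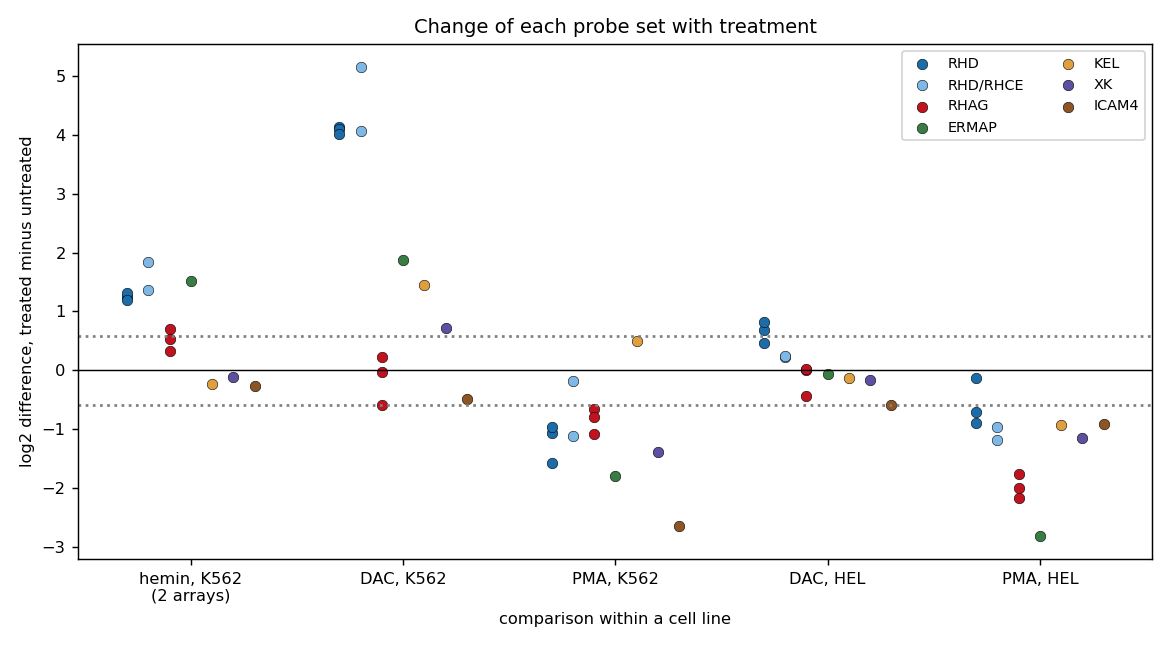
Log2 difference (treated minus untreated) of each of the 12 probe sets in the 5 treatment comparisons within a cell line; each point is 1 probe set and the dotted lines mark 1.5-fold. With DAC in K562 the 5 Rh points lie between 4.02 and 5.15, and with PMA in HEL all points lie below 0.

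In HEL, with DAC at 20 nM in place of 100 nM, the differences were small. Of the 12 probe sets, 2 were over 1.5-fold higher with DAC (6.42% of all probe sets) and 1 was lower (6.73%). The 2 were RHD probe sets, 210429_at at 10.90 with DAC against 10.21 untreated and 210430_x_at at 11.13 against 10.31. The third RHD probe set and the shared ones differed by 0.23 to 0.46. ICAM4 was the lower one, at 10.15 against 10.74, a fold just past the limit of 1.5. A fit over all 9 arrays, added after the values were seen, called 0 of 21850 probe sets for DAC in HEL (1372 had an unadjusted p under 0.05, smallest adjusted p 0.355). It gave a DAC difference in K562 that was larger than that in HEL by 3.29 to 4.92 for the 5 Rh probe sets, with adjusted p from 0.370 to 0.571. That comparison called 0% of all probe sets, and the doses differ between the lines.

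Untreated K562 and HEL cells stood far apart in the Rh probe sets and not in RHAG. The 5 Rh values of untreated K562 cells were 21.6- to 68.0-fold below those of untreated HEL cells, with differences of -4.43 to -6.09. In the fit over 9 arrays all 5 passed with adjusted p from 0.00652 to 0.0213, where 17.6% of all probe sets passed and 9.58% were lower in K562. Leaving out any 1 of the untreated or hemin K562 arrays kept the direction and ended these calls (adjusted p from 0.0587 to 0.125), and the lone HEL array was assumed to vary like the K562 arrays. RHAG differed by 0.09, 0.48 and 0.04. By the 1.5-fold rule 0 of the 12 probe sets were higher in K562 (30.7% of all probe sets) and 9 were lower (25.3%), among them KEL by 2.21-fold, XK by 1.95-fold, ERMAP by 2.49-fold and ICAM4 by 2.29-fold. The median over the 12 was -1.25, against 0.11 over all probe sets. The DAC-treated K562 array lay 0.30 to 1.26 below the untreated HEL array in the 5 Rh probe sets, so the Rh values of the 2 arrays were much closer than those of the untreated arrays.

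**Figure D3:**
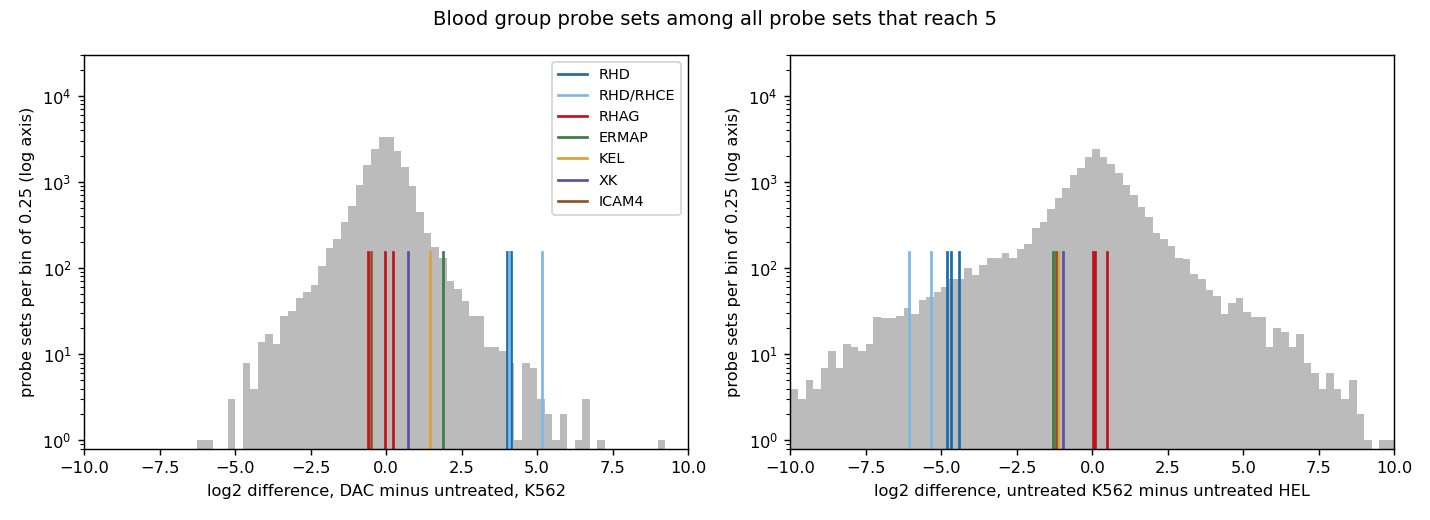
Distribution of log2 differences over all probe sets that reached 5 (grey, bins of 0.25, log axis for the count), for DAC minus untreated in K562 (left) and untreated K562 minus untreated HEL (right), with the 12 probe sets as coloured lines. The 5 Rh lines lie in the upper tail on the left, at 4.02 to 5.15, and in the lower tail on the right, at -4.43 to -6.09.

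With hemin, the same Rh probe sets and ERMAP lay above the untreated arrays by smaller amounts. The 5 Rh probe sets were 2.29- to 3.58-fold higher, with differences of 1.20 to 1.84, and both hemin arrays exceeded both untreated arrays in each. The 25 µM array exceeded the untreated mean by 0.87 to 1.61, the 50 µM array did so by 1.48 to 2.07, and the higher dose lay 0.41 to 0.74 above the lower in all 5. The 2 untreated arrays themselves differed by 0.37 to 0.52 in these probe sets. ERMAP read 7.23 and 7.90 with hemin, against 6.31 and 5.78 untreated, a difference of 1.51 (SE 0.35). Adjusted p-values in limma were 0.449 to 0.462 for the Rh probe sets and 0.462 for ERMAP, and the 95% interval of the ERMAP difference was 0.53 to 2.50. Over all probe sets limma called 0 of 20260 with hemin, which is 0% (2154 had an unadjusted p under 0.05, smallest adjusted p 0.418).

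RHAG was bright on every array and differed little with hemin. Probe set 206145_at read 14.22 and 14.36 with hemin, against 13.74 and 13.76 untreated. Probe set 206146_s_at read 12.62 and 12.78, against 11.74 and 12.24, and 211254_x_at read 12.14 and 12.06, against 11.78 and 11.78. All 3 were higher on both hemin arrays, by 0.54, 0.71 and 0.32, and only 206146_s_at passed 1.5-fold, though not without untreated replicate 1, where its difference was 0.46. With the Rh probe sets and ERMAP this made 7 of 12 higher (10.6% of all probe sets) and 0 lower (11.4%), and the median of the 12 was 0.95, against 0.00 over all probe sets. Of these 7, 5 are Rh probe sets, so the count and the median weigh the Rh genes more than once. KEL read 5.79 at 25 µM and 7.04 at 50 µM, on either side of its untreated values of 6.76 and 6.54. XK read 10.75 and 10.50, against 10.69 and 10.79, and ICAM4 read 9.41 and 9.13, against 9.26 and 9.83. Between the doses, 3 of 12 were over 1.5-fold higher at 50 µM (10.7%) and 0 lower (14.6%), with KEL at 2.39-fold, RHD 210429_at at 1.67-fold and ERMAP at 1.59-fold.

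With PMA, most of these genes lay below untreated K562 cells, and XK and ICAM4 fell. ICAM4 read 6.89 with PMA, against 9.26 and 9.83 untreated, a difference of -2.65 (SE 0.35, adjusted p in limma 0.0262). XK read 9.36 with PMA, against 10.69 and 10.79, a difference of -1.38 (SE 0.25, adjusted p 0.0439). Limma called 13.8% of all probe sets with PMA, 6.94% as lower. Both calls rest on all 4 untreated and hemin arrays: without any 1 of them the adjusted p was 0.109 to 0.127 for ICAM4 and 0.114 to 0.161 for XK, and 0 probe sets were called in all. The lone PMA array was again assumed to vary like the others.

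ERMAP read 4.25 with PMA, under the minimum, so that its values of 6.31 and 5.78 untreated put it at least 1.05 log2 units lower. As measured, its difference was -1.80 (adjusted p in limma 0.0733). The RHD values with PMA were 4.21 and 4.57 in 2 probe sets, at least 0.78 and 0.63 below the untreated mean. The third read 5.17, a difference of -0.97. As measured, the first 2 differed by -1.57 and -1.06, and the 3 measured differences had adjusted p from 0.0907 to 0.171. The 3 RHAG probe sets read 13.09, 10.91 and 10.99, differences of -0.66, -1.08 and -0.79 (adjusted p from 0.0948 to 0.135). KEL went the other way, at 7.15 with PMA against 6.76 and 6.54, a difference of 0.50 that did not pass the test (adjusted p 0.606). By the 1.5-fold rule 0 of 12 were higher with PMA (26.3% of all probe sets) and 10 were lower (28.5%) as measured, with a median of -1.07, against -0.07 over all probe sets. Of these 10, RHD/RHCE 215819_s_at read 4.15 with PMA, so that its bound is at least 0.26 log2 units or 1.20-fold lower, short of 1.5-fold. With a minimum of 6 the count was 7. The erythroid markers were split on the PMA array. Of the 9 that reached the minimum, 3 were higher by the 1.5-fold rule and 4 were lower, with a median of -0.06. The megakaryocytic markers moved on the same array, since 6 of the 9 named were higher and 4 of them passed the test, among them ITGB3, the integrin beta chain of platelets, at 12.47 with PMA against a mean of 2.65 untreated.

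With PMA in HEL, RHAG lay well below the untreated array. Probe set 206145_at read 11.89 with PMA, against 13.66 untreated, 206146_s_at read 9.51 against 11.51, and 211254_x_at read 9.56 against 11.74. These are 3.41- to 4.53-fold lower. In the fit over 9 arrays 211254_x_at passed with an adjusted p of 0.0395 (1.62% of all probe sets passed, 0.485% as lower), and the others had 0.0599 and 0.150. Leaving out any 1 of the untreated or hemin K562 arrays ended that call, with adjusted p from 0.230 to 0.294. ERMAP read 4.55 with PMA, against 7.37 untreated, at least 2.37 log2 units lower. As measured, its difference was -2.82 (adjusted p 0.168). The PMA difference of RHAG was 1.11, 0.92 and 1.39 less negative in K562 than in HEL, with adjusted p of 0.118, 0.361 and 0.0807, in a comparison where 1.93% of all probe sets passed. By the 1.5-fold rule 0 of 12 probe sets were higher with PMA in HEL (16.8%) and 11 were lower (18.4%), the exception being RHD 210429_at at 10.09 against 10.21. The median of the 12 was -1.06, against -0.09 over all probe sets. HEL, in which megakaryocytic markers were already high, had 7 of the 9 higher with PMA.

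The order of the conditions thus differed from gene to gene. For RHD and RHD/RHCE the order within K562 ran from DAC through 50 and 25 µM hemin and untreated cells to PMA, except that PMA and the lower untreated array were level in 216317_x_at. Times are given above only for DAC (collected at 144 h) and PMA (48 h), and they differ. The part of time in this order was not tested. The step between 25 µM hemin and the untreated mean (0.87 to 1.61) was wider than the gap of 0.37 to 0.52 between the untreated arrays. The step between the hemin doses was 0.41 to 0.74, widest in RHD 210429_at, where the untreated arrays differed by 0.39. In 210430_x_at the dose step of 0.50 did not exceed the untreated gap of 0.52. In 215819_s_at and 216317_x_at the dose steps of 0.46 and 0.41 barely exceeded the untreated gaps, and in 210586_x_at the step was 0.58. For ERMAP, DAC at 7.93 and 50 µM hemin at 7.90 did not differ beyond the gap of 0.53 between the untreated arrays. For RHAG, hemin came first in all 3 probe sets and PMA last in both lines. KEL had its lowest value with 25 µM hemin, and ICAM4 had its highest value in untreated HEL cells and its lowest with PMA in K562.

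Other blood group and red cell surface genes, 36 in all with 25 named on the array, did not move as one group. With DAC in K562, 8 of the 19 that reached the minimum were over 1.5-fold higher (15.6% of all probe sets) and 2 lower (17.7%), with a median of 0.33, and 0 passed limma. SLC4A1, the band 3 anion exchanger that carries the Diego antigens, had 11.34 with DAC, against a mean of 5.99 untreated (adjusted p 0.341), and AQP1, the water channel that carries the Colton antigens, had 6.59 against values below the minimum untreated (adjusted p 0.263). SMIM1, which carries the Vel antigen, had 7.88 against 5.23 (adjusted p 0.317), and SLC29A1, a nucleoside transporter, had 10.05 against 7.80 (adjusted p 0.402). With hemin, 4 of 19 were higher (10.6%) and 2 lower (11.4%), with a median of 0.11 and 0 past the test. GCNT2, which makes the I antigen, averaged 4.62 with hemin, with only the 25 µM array above the minimum at 5.14, against 2.82 untreated (adjusted p 0.462). ABCB6, a porphyrin transporter, had 8.73 with hemin, against 6.96 untreated (adjusted p 0.454). The lower ones were SLC44A2, a choline transporter-like protein, at 5.65 against 6.55 (adjusted p 0.535) and BSG, basigin, at 9.98 against 10.83 (adjusted p 0.490).

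With PMA in K562, 12 of 20 genes of this list were higher (26.3% of all probe sets) and 3 lower (28.5%), with a median of 0.87. Limma called 6 higher, where 6.81% of all probe sets were, and 1 lower, and these calls too were lost without any 1 of the untreated or hemin arrays. AQP1 rose to 8.12 with PMA, against values below the minimum untreated (adjusted p 0.0170). CD59, which protects cells from complement, rose to 13.06, against a mean of 10.25 (adjusted p 0.0156), and SEMA7A, which carries the John Milton Hagen antigen, rose to 8.50, against 5.85 (adjusted p 0.0450). ABCB6 fell to 4.09, under the minimum, against 6.96 untreated (adjusted p 0.0356). In HEL, 2 of 20 were higher (6.42%) and 0 lower (6.73%) with DAC, and 2 of 19 were higher (16.8%) and 5 lower (18.4%) with PMA. In untreated K562 over untreated HEL, 6 of 22 were higher (30.7%) and 10 lower (25.3%).

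**Figure D4:**
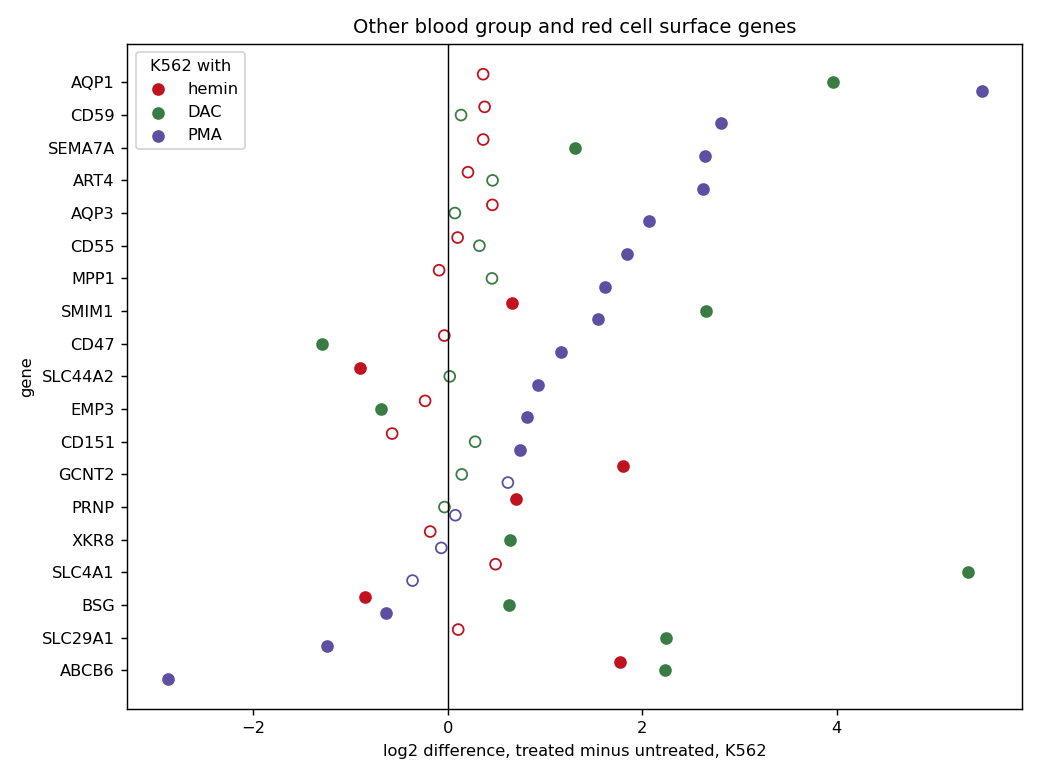
Log2 difference (treated minus untreated, K562) of 19 other blood group and red cell surface genes for hemin, DAC and PMA; filled points are over 1.5-fold with no overlap of the groups, open points are not. SLC4A1 and AQP1 lie farthest right with DAC, and AQP1 farthest right and ABCB6 farthest left with PMA.

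The comparisons with hemin, DAC and PMA in K562 share the same 2 untreated arrays, so their values are set side by side only. Across the 9 arrays, the profiles closest to each gene were found among 9007 genes as the smallest root mean square difference of centred values, a description over arrays that share cell lines and controls. For RHD, whose own values had a root mean square of 2.22 about their mean, the nearest were DNAJA4, a co-chaperone, at 0.43 and CYB5A, cytochrome b5, at 0.79. For RHAG (own 0.69) they were POLR3B and TFRC, the transferrin receptor, at 0.19 each, and for ERMAP (own 1.31) URB1 and UTP15 at 0.47 and 0.53. KEL (own 0.67) was nearest to MFN2 and IPO13 at 0.26 and 0.27, XK (own 0.67) to JADE3 and DVL2 at 0.19 and 0.21, and ICAM4 (own 1.01) to SLC37A4 and USP1 at 0.24 and 0.25.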

How the data were processed

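Expression was measured on 9 arrays, 6 of K562 and 3 of HEL cells. The authors deposited log2 expression values per probe set, made with GCRMA, which corrects background from probe sequence, normalizes by quantiles and summarizes probes into probe sets; no version is given in the sources used here. A shift shared by most genes would thus have been removed, and values near the floor of 2.25 have no order. Array medians were 6.67 to 6.78, and 65.5 to 67.3% of probe sets reached 5 on each array. The number of arrays limits the precision. Of the probe sets, the platform annotation ties 22858 to a single gene and 1164 to more, and it does not list 3284.

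Members and lists were chosen with earlier results of these data known. Probe sets that reached 5 in at least 1 K562 array (20260) were fitted with limma 3.58.1 (R 4.3.3; lmFit, eBayes) in 4 groups, both hemin doses as 1 group, with 2 residual degrees of freedom, Benjamini-Hochberg adjustment over all and a threshold of 0.05. A second fit of 9 arrays in 7 groups was added after the values were seen. The 1.5-fold rule counts probe sets that differ by over 1.5-fold, with groups that do not overlap and at least 1 array at 5. A group wholly below 5 gives a bound, while limma used the values as measured. Named genes are the members, up to 4 others per comparison by size, and the 2 nearest profiles per gene. The markers GATA1, CD3D and ITGB3 were chosen after their values were seen. The fit was tested on simulated data. Alternatives were no filter, a minimum of 6, quantile normalization, median centring, the brightest probe set per gene, an intensity trend, hemin doses as separate groups, a fit without the DAC and PMA arrays, 2-fold and leaving out each array.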

Additional observations from a re-analysis of the deposited data

Results flagged for a closer look

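In 5 cases a probe set lay on one side of untreated cells in K562 and on the other in HEL. With DAC these were KEL, at 1.44 in K562 and -0.13 in HEL, XK, at 0.72 and -0.17, ERMAP, at 1.88 and -0.06, and RHAG 211254_x_at, at -0.0295 and 0.0277. With PMA it was KEL, at 0.50 in K562 and -0.92 in HEL. All values are log2 differences, treated minus untreated, from 1 treated array a line, and the DAC doses differ between the lines. In the fit over 9 arrays the difference between the lines did not pass the test for any of them, with adjusted p of 0.852 for KEL, 0.696 for XK, 0.729 for ERMAP and 0.964 for RHAG 211254_x_at with DAC and of 0.508 for KEL with PMA. Both RHAG values are close to 0.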

How the results depend on the processing

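Of 450 recomputed differences of single probe sets in K562, 428 kept their direction and side of the threshold, 7 changed sign, 11 lost a call and 4 gained one. The sign changes were in small differences: RHAG 211254_x_at with DAC was 0.0065 with median centring; RHD/RHCE 216317_x_at with PMA was 0.00 without untreated replicate 1 (-0.37 to 0.00 on leaving out 1 array); ICAM4 with hemin was 0.0113 without untreated replicate 2 (-0.56 to 0.0113); KEL with hemin was 0.39 with 50 µM alone (-0.86 to 0.39) and XK 0.0078 with 25 µM alone (-0.24 to 0.0078), whether by dose or by leaving out the other array. The lost calls were those of XK and ICAM4 with PMA, without any 1 untreated or hemin array, with each dose as its own group (0.115 and 0.119) and, for ICAM4, with no filter (0.0555). The gained ones were RHD/RHCE 215819_s_at with DAC (0.0425, median centring) and RHAG with PMA (0.0422 and 0.0449 with an intensity trend, 0.0361 with no filter).

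With DAC in K562, limma called 12 probe sets with a minimum of 6 or with quantile normalization, 29 with median centring, 6 with the brightest probe set per gene, 31 with an intensity trend and 0 to 12 on leaving out 1 array, against 0. With PMA it called 1664 with the brightest probe set per gene, 0 with each dose as its own group and 0 to 2826 on leaving out 1 array, against 2786.

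Counts past 1.5-fold fell with the brightest probe set per gene, as each gene is then counted once and the shared Rh probe sets drop out. They were 2 higher with hemin, 4 higher and 0 lower with DAC and 5 lower with PMA in K562. In HEL they were 0 higher with DAC and 6 lower with PMA, and in K562 against HEL 5 lower. At 2-fold they were 0 lower with DAC in K562, 0 higher and 0 lower with DAC and 6 lower with PMA in HEL, and 1 higher at 50 over 25 µM hemin. Median centring gave 0 lower with DAC in both lines and, like quantile normalization, 5 higher at 50 over 25 µM hemin. On leaving out 1 array, 0 to 2 were lower with DAC, 0 to 1 lower with hemin, 0 to 1 higher with PMA and 0 to 1 higher in K562 against HEL. The cause of these shifts was not tested.

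Values below 5 give bounds only. With 2 residual degrees of freedom and 1 array for most conditions, a p that misses the threshold does not show that values did not differ. No paired analysis was possible because the labels do not tie any array to an array of another group as a pair.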
